A study of Caenorhabditis elegans with 2 samples.

Results

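Of the 30000 regions in the pooled list of an ETS-4-GFP chromatin immunoprecipitation with sequencing (ChIP-seq) experiment in Caenorhabditis elegans, 408 (1.36%) had their summit in or within 150 bp of a nuclear tRNA gene, and they are described here. The summit is the base where the authors' caller placed the peak, and the rule used positions alone: no signal entered the choice. The annotation held 634 tRNA genes, of which 22 were mitochondrial, and the remaining 612 nuclear genes defined the windows. Of these 612 genes, 421 (68.8%) had at least 1 such region beside them.

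The study precipitated chromatin from whole young adult worms, 73 h old and of mixed sex, that had been synchronised as L1 larvae starved after bleaching. There was 1 group of 2 biological replicates, and both came from strain RAF1713, which carries the insertion rrrSi400 on chromosome II in an unc-119(ed3) background. The insertion holds ets-4 joined to GFP between the promoter and the 3'UTR of ets-4, together with an unc-119(+) copy. The description names an anti-GFP antibody while the antibody field names ets-4, and the tag is called both eGFP and GFP-FLAG. With 1 group the lists held no contrast between conditions, and no precipitate from worms without the tag was analysed here, so what is due to ETS-4 and what is due to the precipitation itself cannot be told apart. Sonication left fragments of 200 to 800 bp, longer than a tRNA gene, and whole worms mix all tissues.

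Transfer RNA genes are transcribed by RNA polymerase III from a promoter inside the gene. The factor TFIIIC binds its 2 parts, box A near the 5' end and box B further 3', and brings TFIIIB to the DNA just upstream of the start, and transcription ends at a run of T. ETS-4 is a transcription factor of the ETS family, whose members bind DNA with a GGAA core and are known mainly from genes of RNA polymerase II. The worm genome holds many tRNA genes, a large share of them on X and many of them in introns, and identical copies of a gene are common.

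The genes beside the strongest regions are printed first, because the results turn on where the summits lay relative to the gene and its boxes. They were taken from the RefSeq genome sequence of WBcel235 (ce11), 5' to 3' along the tRNA gene, with 50 bp of flank on each side, so that the gene begins at base 51. Capitals mark the box A core TNGNNNAG and the box B core GTTCGANNC, or, in the tRNA-Gln genes, which do not hold that core, GTTCNANNC at the same place. The first 6 stand beside 6 of the 7 strongest regions.
C04A11.t1, tRNA-Leu, chrX:13665505-13665723, plus strand: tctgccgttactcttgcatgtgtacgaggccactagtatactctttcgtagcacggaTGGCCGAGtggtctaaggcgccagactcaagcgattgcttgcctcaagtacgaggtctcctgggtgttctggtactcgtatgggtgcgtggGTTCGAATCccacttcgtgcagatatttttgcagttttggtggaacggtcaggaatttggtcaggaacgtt
F57F5.t1, tRNA-Ile, chrV:12002126-12002310, plus strand: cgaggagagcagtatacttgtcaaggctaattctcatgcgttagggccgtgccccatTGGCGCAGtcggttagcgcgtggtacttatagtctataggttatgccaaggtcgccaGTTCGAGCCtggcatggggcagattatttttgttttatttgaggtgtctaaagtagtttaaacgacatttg
T03E6.t1, tRNA-Gln, chrV:16592187-16592358, minus strand: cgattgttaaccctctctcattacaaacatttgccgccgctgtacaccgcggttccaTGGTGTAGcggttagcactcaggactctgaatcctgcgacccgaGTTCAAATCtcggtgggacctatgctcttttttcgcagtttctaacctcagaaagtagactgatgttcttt
F15G9.t1, tRNA-Ala, chrX:9743539-9743710, plus strand: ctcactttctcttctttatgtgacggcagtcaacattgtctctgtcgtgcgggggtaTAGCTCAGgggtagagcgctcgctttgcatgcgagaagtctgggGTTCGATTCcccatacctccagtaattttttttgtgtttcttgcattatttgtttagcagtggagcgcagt
F41D9.t3, tRNA-Asn, chrX:8404449-8404621, plus strand: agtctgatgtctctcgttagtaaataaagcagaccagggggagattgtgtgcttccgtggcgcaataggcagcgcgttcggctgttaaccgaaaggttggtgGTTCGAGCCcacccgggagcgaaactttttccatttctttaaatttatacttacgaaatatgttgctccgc
H08J11.t3, tRNA-Gln, chrX:9091507-9091678, minus strand: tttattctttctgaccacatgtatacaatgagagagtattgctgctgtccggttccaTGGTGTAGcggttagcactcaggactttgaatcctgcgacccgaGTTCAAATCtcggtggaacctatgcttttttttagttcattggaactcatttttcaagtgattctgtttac
The next 3 genes are copies of T03E6.t1, F15G9.t1 and F41D9.t3, in that order, with the same gene sequence but no pooled region in the window, so that only the flanks differ within each pair.
Y4C6B.t1, tRNA-Gln, chrIV:5334662-5334833, plus strand: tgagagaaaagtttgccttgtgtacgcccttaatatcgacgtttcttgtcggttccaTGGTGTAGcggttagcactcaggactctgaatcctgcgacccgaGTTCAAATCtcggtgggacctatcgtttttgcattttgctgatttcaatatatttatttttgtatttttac
B0491.t1, tRNA-Ala, chrII:11334458-11334629, plus strand: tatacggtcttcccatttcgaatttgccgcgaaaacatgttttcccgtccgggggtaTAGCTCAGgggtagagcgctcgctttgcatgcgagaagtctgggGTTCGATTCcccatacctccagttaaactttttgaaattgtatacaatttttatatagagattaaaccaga
F57G8.t2, tRNA-Asn, chrV:16341729-16341901, plus strand: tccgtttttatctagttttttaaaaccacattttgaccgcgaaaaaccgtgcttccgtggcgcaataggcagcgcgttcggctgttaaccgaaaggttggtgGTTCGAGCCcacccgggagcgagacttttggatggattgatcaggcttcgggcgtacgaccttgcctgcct
In each run a stretch of T follows the gene. F41D9.t3 and F57G8.t2 held no match to the box A letters, which says only that those letters are absent.

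A few facts of the 4 deposited lists bear on every value. Each replicate list and the pooled list hold 30000 regions, peaks and background together. The other list had passed the irreproducible discovery rate (IDR) procedure, which compares the ranking of regions between replicates. Each of its intervals is also an interval of the pooled list, and together they are the strongest 3.67% of the pooled list. Overlap with the IDR list and a high pooled rank are thus nearly 1 and the same measure here. A single region on the IDR list need not rank alike in the 2 replicates. Signal is the caller's own value for a region, was not scaled between lists and is read only within a list, as a rank. Per-region read counts are not in these lists, so the depth is unknown.

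Regions beside tRNA genes stood high in the pooled list. By at least 1 bp, 87 of the 408 (21.3%, Wilson 95% interval 17.6 to 25.6) overlapped the IDR list, against 4.27% of all 30000 pooled regions. Counting only regions with the very start and end of an IDR region left 80 (19.6%), against 3.67% of all pooled regions. The other 7 only touched a neighbour on the IDR list, and the weakest of them, at C28G1.t1, had a signal of 26.35. The lowest signal on the IDR list itself was 79.42. Below, a region called on the IDR list is any that overlaps it by at least 1 bp, so these 7 are included. Seen from the IDR list, 80 of its regions (7.26%) had their summit in or within 150 bp of a tRNA gene. The intervals count regions and cover counting error only, and neighbouring regions are not independent.

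The pooled signal of the 408 ran from 21.76 to 203.6, with a median of 51.6 and quartiles of 37.1 and 73.0. The other 29592 pooled regions had a median of 31.4. The median region beside a tRNA gene therefore lay at the 87.2th percentile of the pooled list. Of the 408, 181 (44.4%) were in the strongest 10% of the list and 65 (15.9%) in its weaker part below the median. Of the 100 strongest pooled regions 3 were beside a tRNA gene, where 1.36% of the whole list were, a count too small to compare. The strongest of the 408 held rank 44. The lowest q value the caller gave was shared by 102 of the 408 (25%), against 4.64% of all pooled regions. All 408 had the usual width of 370 bp.

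Each replicate list was read separately for the same 408 regions. In replicate 1, 62 (15.2%, interval 12.0 to 19.0) were overlapped by 1 of that replicate's own strongest regions, taken to the number that the IDR list holds, against 4.43% of all pooled regions. In replicate 2 the number was 84 (20.6%, interval 16.95 to 24.8), against 4.25%. Both replicates therefore placed a larger share of these regions than of all pooled regions among their strongest. Both did so for the same 38 regions (9.31%), against 2.30% of all pooled regions, while 24 were so placed in replicate 1 alone, 46 in replicate 2 alone and 300 in neither.

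Of the 87 overlapping the IDR list, 38 were among the strongest in both replicates, 11 in replicate 1 alone, 31 in replicate 2 alone and 7 in neither. At any rank, a region of replicate 1 overlapped 333 of the 408 (81.6%, against 67.4% of all pooled regions) and a region of replicate 2 overlapped 377 (92.4%, against 75.1%). The median rank of the overlapping region was 4653 in replicate 1 and 3202 in replicate 2. All 87 overlapping the IDR list had a region in both replicate lists. Across the 306 of the 408 that did, the replicate signals had a Spearman's rho of 0.474, and across 14030 other pooled regions one of 0.375. These are descriptions across regions that share the same 2 libraries and the same control. The pooled list was made from the same 2 replicates, so the replicate lists are not independent of it.

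**Figure D1:**
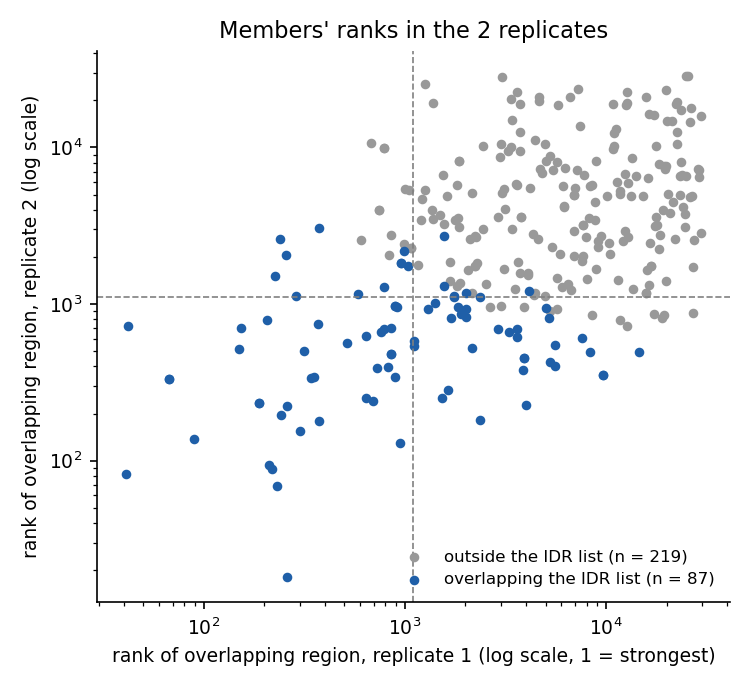
Rank of the best overlapping region in replicate 1 (x axis) and replicate 2 (y axis), both on log axes, for the 306 regions beside tRNA genes (members) with one in both lists, with dashed lines at the size of the IDR list. The 87 regions overlapping the IDR list (blue) include 80 among the strongest of at least 1 replicate, and the points scatter widely about the diagonal.

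The strongest 20 regions show what these places were. They lay beside genes of 12 isotypes, an isotype being the amino acid a tRNA carries. Of the 20, 14 were on X, against 44.85% of the 408. The summit lay upstream of the gene in 10, in it in 6 and downstream in 4. In the 408 these shares were 34.1%, 47.55% and 18.4%. By that measure 19 of the 20 were among the strongest of both replicates, against 9.31% of the 408. They were chosen by a pooled signal that comes from the same replicates, so such agreement is largely set by the choice. The tRNA gene was intergenic for 12, in an intron of a protein-coding gene for 7 and in an exon for 1, and 5 of the 20 summits lay in a protein-coding promoter.

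The strongest was at C04A11.t1, a tRNA-Leu gene with no identical copy, in X 13665380 to 13665749. Its signal was 56.05 in replicate 1, 147.6 in replicate 2 and 203.6 in the pooled list, at ranks 258, 18 and 44, and its summit lay 10 bp into the gene, at the box A core. It stood higher in replicate 2 than in replicate 1. The second, at the tRNA-Ile gene F57F5.t1 (V 12002013 to 12002382), also without a copy, had signals of 86.53, 105.2 and 194.6 and ranks of 41, 82 and 53. Both replicates placed it high, with the summit 22 bp into the gene. It also lay in the promoter of gcy-33, a soluble guanylyl cyclase gene, 401 bp upstream of its annotated 5' end. A promoter here reaches from 1000 bp before to 200 bp past where the annotation starts a protein-coding gene.

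At the tRNA-Gln gene T03E6.t1 (V 16592164 to 16592533) the signals were 59.58, 102.7 and 166.5 in replicate 1, replicate 2 and the pooled list, and the ranks 211, 94 and 100. The summit lay 41 bp upstream of the gene, in the flank that sets it apart from its copy Y4C6B.t1, and 307 bp upstream of srh-269, a chemoreceptor-type gene. At the tRNA-Ala gene F15G9.t1 (X 9743504 to 9743873), in an intron of him-4, which encodes the extracellular protein hemicentin, the signals were 73.21, 94.63 and 163.4 and the ranks 89, 138 and 107. Its summit lay past the gene, 100 bp from the 5' end, between F15G9.t1 and the neighbouring tRNA-Ala gene F15G9.t2. Both places ranked among the strongest in each replicate, with summits outside the tRNA gene.

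At the tRNA-Asn gene F41D9.t3 (X 8404281 to 8404650), in an intron of sulp-3, an anion transporter gene, on the opposite strand, the signals were 77.53, 73.13 and 148.1 and the ranks 67, 334 and 149, with the summit 33 bp upstream. At the tRNA-Gln gene H08J11.t3 (X 9091388 to 9091757), in an intron of ajm-1, a gene of the apical junction, the signals were 55.76, 80.48 and 145.7 and the ranks 260, 225 and 159, with the summit 55 bp into the gene, where its box B stands. At these 2 introns the tRNA gene runs against the host gene. At the tRNA-Gly gene F56C3.t1 (X 1379435 to 1379804) replicate 1 stood higher, with signals of 86.18, 58.09 and 145.5 and ranks of 42, 729 and 160.

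The other 13 had pooled signals from 117.2 to 163.4. Among them K07A1.t1 (tRNA-Ser) lay 25 bp upstream of aqp-9, an aquaporin gene, and C12C8.t2 (tRNA-Gly) lay 43 bp upstream of cbl-1, a cystathionine beta-lyase gene, with summits 115 and 177 bp from the tRNA 5' end. Their summits lay nearer to the start of the protein-coding gene than to the start of the tRNA gene. R01H5.t1 (tRNA-Thr) was the 1 region not among the strongest of replicate 1, at rank 2356 in replicate 1 and 181 in replicate 2. C28G1.t1 (tRNA-Glu) was annotated in an exon of C28G1.2, on the same strand, and its summit lay 28 bp past the 5' end of C28G1.2 and 69 bp from that of the tRNA gene, in the promoters of C28G1.2 and sec-15. The rest were F17H10.t1 (tRNA-Gly, in an intron of snx-17), W02H3.t1 (tRNA-Leu), C02B4.t2 (tRNA-Tyr, in an intron of the nuclear hormone receptor gene nhr-17), F46G11.t2 (tRNA-Pro), F41A4.t1 and F38G1.t2 (tRNA-Asp, the latter in an intron of the fibroblast growth factor gene egl-17), C42D8.t1 (tRNA-Ile), and ZC455.t1 and C53C7.t2 (tRNA-Ser, the former in an intron of ZC455.1).

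Summits gathered in the tRNA gene and its near flanks. Measured along the strand of the gene from its 5' end, the median summit stood 22 bp in, the quartiles 20 bp upstream and 60.25 bp downstream of the 5' end. Of the 408, 194 (47.5%) had the summit in the gene, 139 (34.1%) upstream and 75 (18.4%) downstream. The bins from 0 to 24 and from 25 to 49 bp held 73 and 74 summits, and those on both sides held fewer, with 53 from 1 to 25 bp upstream. The next bins out held 46, from 26 to 50 bp upstream, and 48, from 50 to 74 bp past the 5' end. From 50 bp upstream to 24 bp into the gene there were 172 (42.2%). That span leaves out the bin from 25 to 49 bp, so it does not mark the fullest stretch.

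Strength was compared between the 3 places. The IDR list was overlapped by 29 of 139 upstream (20.9%), 39 of 194 in the gene (20.1%) and 19 of 75 downstream (25.3%). The median pooled signals were 52.2, 54.3 and 44.2. Summits of regions on the IDR list had a median position of 19 bp and those of the others one of 23 bp, a difference of 4 bp. The sheared fragments were longer than these distances, and how far a summit can be placed within a gene of this length was not tested.

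**Figure D2:**
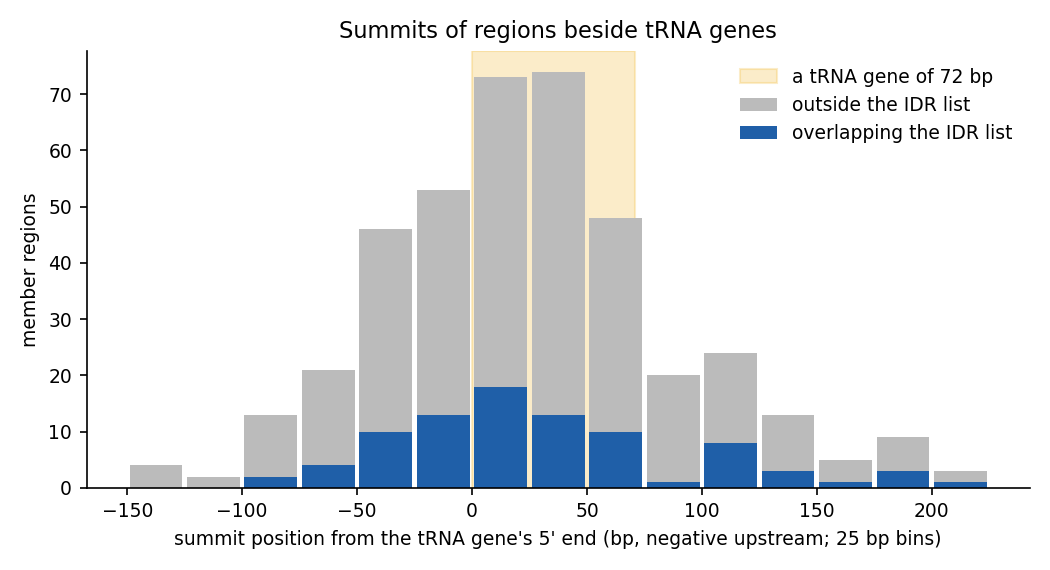
Number of regions beside tRNA genes (members, y axis) by the position of the summit in bp from the 5' end of the nearest tRNA gene, along its strand (x axis, bins of 25 bp), with those overlapping the IDR list in blue and the span of a 72 bp gene shaded. The bins from 0 to 49 bp hold 73 and 74 of the 408 summits.

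The share overlapping the IDR list showed no decline within the 150 bp and was lower beyond them, while the median signal fell within them. Of summits in a tRNA gene 20.1% (of 194) overlapped the IDR list, of those 1 to 50 bp away 23.6% (of 144), and of those 51 to 100 bp away 18.9% (of 53). From 101 to 150 bp the share was 23.5% of only 17 regions (interval 9.56 to 47.3). It includes the region at Y105C5B.t2, which only touched a neighbour on the IDR list. Regions that only touch were not set apart in these shares by distance. The share was 9.09% of 33 from 151 to 300 bp, 5.41% of 37 from 301 to 500 bp and 3.42% of 146 from 501 to 1000 bp. Past 5000 bp it was 4.03% of 28423 regions. The share beyond 500 bp was thus near that of all pooled regions. The median signal was 54.3 in the gene and 53.6 at 1 to 50 bp. It was already lower inside the window, at 41.2 from 51 to 100 bp and 40.6 from 101 to 150 bp. Further out it was 40.1 at 151 to 300 bp, 28.6 at 301 to 500 bp and 31.2 at 501 to 1000 bp.

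**Figure D3:**
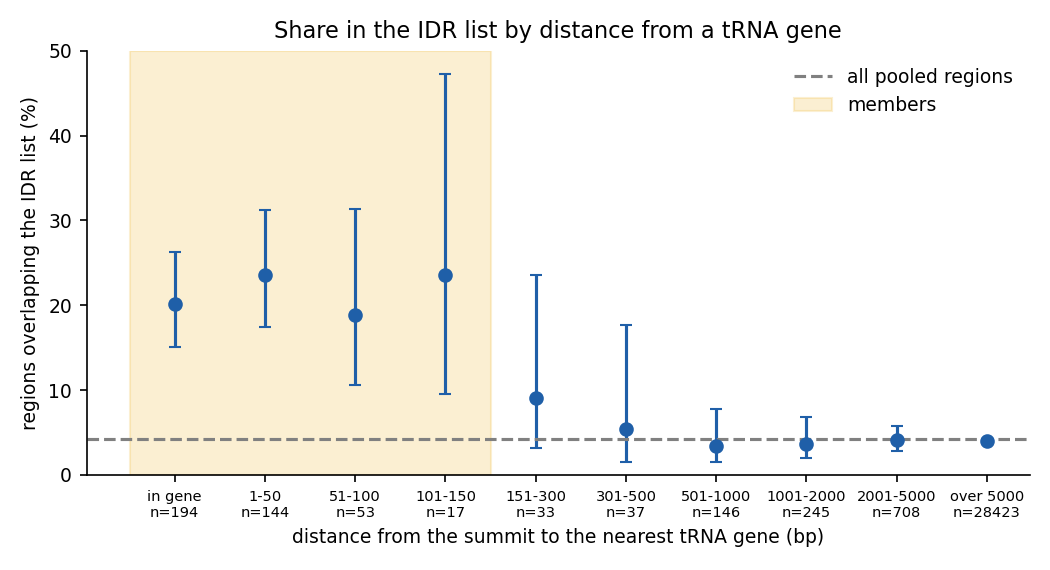
Percent of pooled regions overlapping the IDR list (y axis, with Wilson 95% intervals) by distance of the summit from the nearest tRNA gene in bp (x axis), with the 408 regions (members) shaded and all pooled regions as a dashed line. Shares of 18.9% to 23.6% within 150 bp give way to 9.09% at 151 to 300 bp and to about the level of all pooled regions (4.27%) beyond 500 bp.

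At the limit itself, the regions just inside were at K11E4.t5 (146 bp from the gene, signal 53.16), F27E11.t1 (145 bp, 34.76), F22G12.t2 (144 bp, 43.73), Y37E11AL.t1 (141 bp, 22.34) and Y105C5B.t2 (137 bp, 58.43). Just outside were regions at R04A9.t1 (151 bp, 33.25), F49E7.t2 (152 bp, 44.01), F27D9.t1 (154 bp, 42.99), T22A3.t1 (158 bp, 45.48) and F08F1.t3 (161 bp, 36.58). Some of these genes also had a stronger region inside the window, among them R04A9.t1 and F27D9.t1 (best pooled ranks 1920 and 1802). Of the 10 regions, the one at Y105C5B.t2 alone overlapped the IDR list. Its signal was below the lowest on that list (79.42), so it only touched a neighbour.

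Seen gene by gene, most tRNA genes had a region and few had one on the IDR list. A pooled region lay beside 421 of the 612 (68.8%) and a region on the IDR list beside 91 (14.9%), and 191 had none in the window. The 5' ends of 409 tRNA genes (66.8%) lay within 150 bp of a pooled summit, while such windows covered 8.82% of the bases of the assembly. The replicate lists gave 340 genes with a region in replicate 1 and 410 in replicate 2, of which 288 were shared, 52 were in replicate 1 alone, 122 in replicate 2 alone, and 150 genes had a region in neither. For the strongest regions of each replicate, taken to the size of the IDR list, the numbers were 60 and 87 genes, with 37 shared. Some genes shared a region: 27 of the 408 regions had 2 tRNA genes in the window, and 11 of these 27 (40.7%) overlapped the IDR list, against 76 of 381 (19.95%) with 1 gene. Counted by gene, the shares were close. Of 170 genes with another tRNA gene within 500 bp, 27 (15.9%) were beside a region on the IDR list, against 64 of the other 442 (14.5%). Any pooled region lay beside 62.9% and 71.0% of these.

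Genes of nearly every isotype were among them. An isotype was given for 607 of the 612 genes in RefSeq, and 19 of 21 isotypes had a gene beside a region on the IDR list. The share of genes with a pooled region ran from 50% for tRNA-Asn (10 of 20) and 52.6% for tRNA-Tyr (10 of 19) to 84.6% for tRNA-Cys (11 of 13) and 88.9% for tRNA-Asp (24 of 27), apart from the 1 selenocysteine gene, which had one. The other 16 lay between 55.0% and 82.35%. The share beside a region on the IDR list was 38.5% for tRNA-Cys (5 of 13), 26.5% for tRNA-Ala (9 of 34) and 23.5% for tRNA-Thr (8 of 34).

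At the other end, of the 45 tRNA-Val and tRNA-Phe genes 33 had a pooled region and 1 a region on the IDR list, a tRNA-Val gene. The replicates differed for single isotypes: among their own strongest regions, tRNA-Gly genes numbered 10 in replicate 1 and 6 in replicate 2, tRNA-Cys genes 2 and 6, tRNA-Thr genes 1 and 7, and tRNA-Val genes 0 and 2. No tRNA-Phe or tRNA-His gene was among the strongest in either. The order of the isotypes by their IDR share thus rests on a few genes each and was not the same in the replicates.

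**Figure D4:**
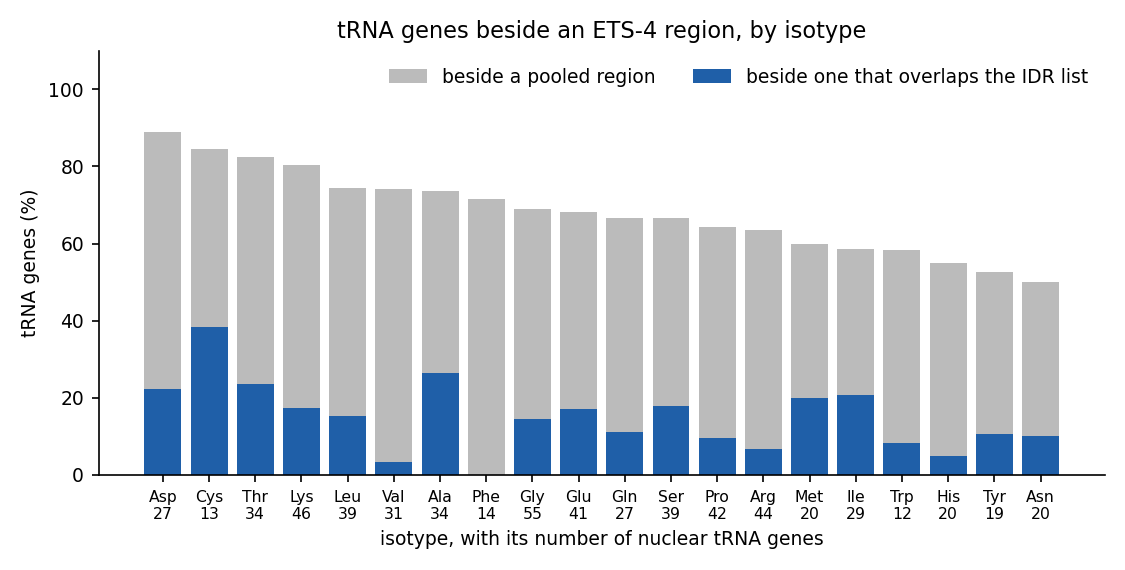
Percent of nuclear tRNA genes (y axis) beside a pooled region (grey) and beside one that overlaps the IDR list (blue, drawn in front), for each isotype of 10 or more genes (x axis). Grey bars run from 50% for tRNA-Asn to 88.9% for tRNA-Asp, and blue bars from 0% for tRNA-Phe to 38.5% for tRNA-Cys.

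Identical copies of a gene differed in their regions. The 612 genes had 200 distinct sequences, with up to 29 copies of one. In the 20 groups of 10 or more copies, 18 had both a copy beside a region on the IDR list and a copy with no pooled region. Of the 29 copies of the tRNA-Gly gene of which C12C8.t1 is one, 23 had a pooled region, from rank 160 to rank 23580, and 6 had one on the IDR list. Of 25 copies of the tRNA-Lys gene B0350.t1, 24 had a region and 6 one on the IDR list. Of 18 copies of the tRNA-Asn gene F28F5.t1, the group of F41D9.t3 and F57G8.t2 printed above, 10 had a region and 2 one on the IDR list.

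The printed pairs put this at the level of single genes. Y4C6B.t1 had no region in any of the lists, whereas T03E6.t1, with the same gene sequence, held pooled rank 100. B0491.t1 and F57G8.t2 had a region in replicate 1 alone, at ranks 16347 and 18523, whereas F15G9.t1 and F41D9.t3 held pooled ranks 107 and 149. These pairs were picked for that difference, so it is a description. The sources used here do not say how reads that fit several copies were placed. Of the 143 genes with no identical copy, 80 (55.9%) had a pooled region and 15 (10.5%) one on the IDR list. For genes with 6 to 15 copies the numbers were 174 of 231 (75.3%) and 38 (16.5%), and for those with more, 116 of 156 (74.4%) and 27 (17.3%). The part that read placement has in these shares was not tested.

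**Figure D5:**
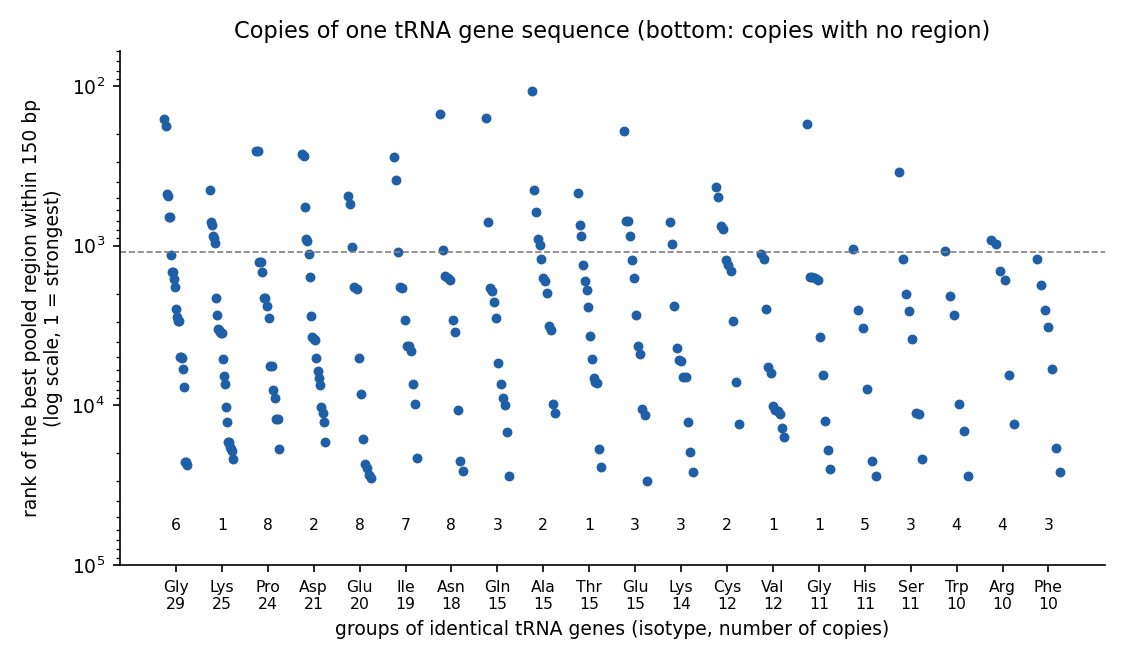
Rank of the best pooled region within 150 bp of each copy (y axis, log scale, strongest at the top) for the 20 groups of 10 or more identical tRNA genes (x axis, isotype and number of copies), with the number of copies that have no region along the bottom and a dashed line at the size of the IDR list. Ranks within a group spread widely, from 160 to 23580 among the 29 tRNA-Gly copies.

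X carries many of the tRNA genes, and its share of the regions was close to its share of the genes. Of the 408, 183 (44.85%) were on X, beside 45.1% of tRNA genes and 20.3% of pooled regions. A region lay beside 194 of 276 genes on X (70.3%) and 227 of 336 on the autosomes (67.6%). On single autosomes the share ran from 51.5% (34 of 66) on chromosome I to 82.8% (53 of 64) on chromosome III. A region on the IDR list lay beside 50 genes on X (18.1%) and 41 on the autosomes (12.2%). In the strongest regions of replicate 1 the shares were 13.0% and 7.14%, and in replicate 2 17.75% and 11.3%, so both replicates had the higher share on X. By copy number the direction was not the same. Of genes with no identical copy, 5 of 57 on X (8.77%) and 10 of 86 on the autosomes (11.6%) had a region on the IDR list, and 52.6% and 58.1% had any pooled region. Of genes with copies, 45 of 219 on X (20.5%) and 31 of 250 on the autosomes (12.4%) had a region on the IDR list. Pooled regions in general overlapped the IDR list more often on X, at 5.26% against 4.01%. Worms have males with 1 X and hermaphrodites with 2, and the share of males in these mixed-sex samples is not known here. Whether the difference between X and the autosomes exceeds replicate error was not tested.

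Most of the 408 lay outside protein-coding promoters. In a promoter were 72 (17.6%), against 24.1% of the other pooled regions, and 336 (82.4%) did not. The IDR share was 29.2% (21 of 72) in promoters and 19.6% (66 of 336) outside, while other pooled regions had 6.70% and 3.18%. The median signals of regions beside tRNA genes were nearly equal, 51.9 in promoters and 51.4 outside. Those 21 stood in promoters of 22 protein-coding genes.

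Of the tRNA genes, 319 were intergenic, 283 in an intron and 10 in an exon of a protein-coding gene. A pooled region lay beside 66.5% of the intergenic and 71.0% of the intronic genes, and one on the IDR list beside 17.2% (55) and 12.0% (34). In introns, tRNA genes on the strand of the host numbered 160, of which 15 (9.38%) had a region on the IDR list, and those on the opposite strand 122, of which 19 (15.6%) did. Any pooled region lay beside 71.25% and 71.3% of these. Of the 87 regions overlapping the IDR list, 46 had an intergenic tRNA gene, and the tRNA genes of the 38 intronic and 3 exonic ones lay in 34 host genes.

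The sequence around the summits was searched for letters of ETS and GATA factors and for the boxes of tRNA genes. Windows of 50 bp to each side of the summit were searched on both strands. CCGGAA, a longer ETS motif that holds the GGAA core, was in 7 of the 408 (1.72%), against 5.10% of the other pooled regions and 5.06% of all pooled regions. CCGGAT was in 10 (2.45%), against 2.89% of all, and GGAA alone was not searched for. Of the 87 overlapping the IDR list 1.15% held CCGGAA and 2.30% CCGGAT, and of the other pooled regions overlapping it 4.11% and 1.84%. A match is not a site, and the absence of these letters from a window says nothing about the factor.

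The GATA letters TGATAA were in 45 (11.0%) of the 408, near the 10.5% of all pooled regions, and GAGAGA in 34 (8.33%), near 8.85%. On the IDR list, TGATAA was in 8.05% of the windows beside tRNA genes and in 26.7% of the others, and GAGAGA in 10.3% and 21.5%. Both shares were the lower ones beside tRNA genes, and the difference was not tested. The box A core TNGNNNAG was in 70.1% (51.1% of all pooled regions, since the letters are few), GTTCGANNC in 31.6% (129 regions, against 1.38% of all) and the wider GTTCNANNC, which includes it, in 44.6% (182 regions, against 4.62%). Most windows take in part of a tRNA gene, which holds these boxes and is often identical between copies. The shares of all the motifs, the ETS and GATA letters included, are thus in part set by the rule. Mean GC content was 46.85% in the 408 and 43.1% in the other pooled regions.

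Genes with and without the box letters were then set side by side. GTTCGANNC was in 441 of the 612 genes (72.1%), and a pooled region lay beside 68.25% of these and 70.2% of the rest. TNGNNNAG was in 511 (83.5%), and a region lay beside 70.8% of these and 58.4% of the rest. Of the 9 genes with neither, 2 had a region. The wider GTTCNANNC was in 587 (95.9%), and of the 25 without it 12 had a region. A run of TTTT began within 20 bp of the 3' end of 98.4% of the genes.

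Annotated tRNA pseudogenes, which are copies not thought to give working tRNA, were a comparison of similar sequence. Of 209 in RefSeq, 27 (12.9%) had a pooled region by the same rule, against 68.8% of tRNA genes. Of those 27 regions 3 overlapped the IDR list (11.1%, interval 3.85 to 28.1), and their median signal was 30.7, near that of other pooled regions. The box A letters were in 87.6% of the pseudogenes, against 83.5% of the genes, and GTTCGANNC in 68.9%, against 72.1%. The wider GTTCNANNC was in 78.95% of the pseudogenes, against 95.9% of the genes. This comparison was added after the values of the genes were known.

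Genes of other small RNAs were set beside them under the same rule. Small nucleolar RNA genes had a region beside 164 of 346 (47.4%), and 71 of the 171 regions there (41.5%, interval 34.4 to 49.0) overlapped the IDR list, with a median signal of 58.5. Regions beside tRNA genes were thus found at a larger share of genes, and a smaller share of them was on the IDR list. Small nuclear RNA genes had 66 regions, of which 17 (25.8%) were on the IDR list, and microRNA genes 60, of which 6 (10%) were. At 5' ends of protein-coding genes a region lay within 150 bp of 2429 of 19985 (12.15%), and 176 of 2437 regions (7.22%) were on the IDR list. The regions beside tRNA genes were nearly all apart from those of the other small RNA classes: 1 of the 408 was also near a small nuclear RNA gene. A few were also within 150 bp of a protein-coding 5' end, where the regions numbered 2445 with them and 2437 without. No test across these classes was made, since regions are not replicates.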

How the data were processed

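ETS-4-GFP ChIP-seq of 1 group with 2 biological replicates was read from 4 lists of regions (build ce11). Text files among the deposited data say that alignments and a control entered each replicate list, that the pooled list used the alignments of both replicates, and that IDR was run on these lists. The signal of each region is the caller's own value as the authors deposited it. The deposited -log10 q value was used only for its ceiling. Aligner, caller, IDR threshold, read placement and read number were not given in the sources used here, so depth and its precision are unknown.

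Summits were placed on tRNA genes of the Ensembl release 115 annotation of WBcel235, with isotypes, pseudogenes and sequences from RefSeq, and coordinates are 1-based. Members and lists were chosen with earlier results of these data known. A region was taken when its summit lay within 150 bp of a gene, the distance was 0 inside it, and overlap meant at least 1 bp. Of each replicate, as many of the strongest regions were taken as the IDR list holds. Motifs were searched within 50 bp of the summit. Identical copies were genes of the same annotated sequence. No statistical test was made, since regions are not replicates: shares stand beside the same share over all pooled regions, with Wilson 95% intervals that cover counting only. Genes were named by rule: the 20 regions of highest pooled signal, and the 5 nearest to the distance limit on each side. Genes named for isotypes, copies and pairs represent their group. The functions were tested on simulated data with known positions. The tools were matplotlib 3.10.9, scipy 1.17.1, pandas 2.3.3, numpy 2.4.6 and Python 3.11.15. Alternatives were other distances, any base of the region in place of the summit, each replicate list in place of the pooled one, one-copy genes, regions outside promoters, stricter IDR overlap and other motif windows.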

Additional observations from a re-analysis of the deposited data

How the results depend on the processing

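No paired analysis was possible because the 2 replicates form 1 group. Of 87 alternative values over 13 results, 54 stayed close to those reported and 33 moved further. Close meant within a factor of 1.5 for a count and inside the Wilson interval of the reported value for a share. For the signal percentile and the summit position it meant a change smaller than the standard deviation between the 2 replicate lists. With the replicate lists in place of the pooled list, the regions numbered 330 to 403, the IDR share was 21.1% to 26.4%, the genes with a region 340 to 410, the genes beside the IDR list 90 in both, the share on X 40.6% to 47.15%, the signal percentile 81.4 to 87.2 and the median summit position 20 to 26 bp. With summits in the gene alone there were 194 regions, 194 genes, 39 genes beside the IDR list and a median position of 34 bp, and with 500 bp the position was 26.5 bp. With one-copy genes alone there were 82 regions, 80 genes and 15 beside the IDR list, 36.6% on X and a percentile of 80.2. The stronger part of the IDR list (its upper 50%) gave 9.80% and 41 genes, and a shorter list lowers such a share for any set of regions. With windows of 25 bp, TGATAA stood at 7.11%, GAGAGA at 3.68%, the box A core at 40.9% and the box B core at 18.1%. With 100 bp the shares were 3.68% for CCGGAA, 4.90% for CCGGAT, 17.6% for TGATAA, 21.1% for GAGAGA, 90.7% for box A and 58.6% for box B. Chosen after seeing the data were the wider box B letters (44.6%) and a split by chromosome: autosomes gave 225 regions, 227 genes, 41 beside the IDR list and 27 bp, and X gave 183, 194, 50 and 17 bp. No share over all regions of a list stands beside these alternative values, so they do not show whether an excess grew or shrank. Smaller sets of genes and wider windows change counts by construction, and other causes were not tested.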
